A study of Rattus norvegicus with 12 samples.

Results

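Idi1, Fdps, Fdft1, Sqle and Cyp51, which encode enzymes of cholesterol synthesis, and Insig1, which encodes a brake on that synthesis, were followed across the newborn and adult semilunar valve and aorta of the rat. Every probe set of the array annotated with 1 gene symbol was taken where that symbol was one of 7 chosen for this pathway (these 6 and Hmgcs1). This gave 9 probe sets for 6 of the 7 genes, out of 31099 probe sets and 14217 named genes on the array. Idi1, Fdft1 and Cyp51 had a pair of probe sets each, and Fdps, Sqle and Insig1 had 1 each. Hmgcs1 was not analysed here. None of the genes acts in cholesterol uptake, and the uptake genes are described from a separate list further on. All 9 probe sets passed the filter on dim signals, which kept 18552 of the 31042 probe sets that are not controls.

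The study measured RNA from Wistar rats on 12 Affymetrix arrays, 3 in each of 4 groups by sample title. Adult valve was the aortic and pulmonary semilunar valves of male adults, and neonatal valve was the same valves taken within 24 h of birth. Adult aorta was the proximal aorta of male adults, and neonatal aorta was the proximal aorta taken within 24 h of birth. The labels give no sex for the newborns, no age in numbers for the adults, and no treatment or altered allele for any group. They do not say whether the 3 arrays of a group came from separate animals or from pools, so the p-values measure only the spread between these samples. These were tissue pieces, in which fewer cells of a type and less RNA per cell cannot be told apart.

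Cholesterol is built from acetyl-CoA through mevalonate, farnesyl diphosphate and squalene to lanosterol, which is then trimmed to cholesterol. The transcription factors SREBP-1 and SREBP-2 (genes Srebf1 and Srebf2) are held in the endoplasmic reticulum by SCAP together with the INSIG proteins while sterols are plentiful. When sterols run low they travel to the Golgi, are cut free by proteases and switch on the synthesis genes and Insig1 itself. Dividing cells need cholesterol for new membranes, and most tissues outside the liver both make it and take it up from lipoproteins.

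Stretches of 4 of the 6 promoters are shown because genes of this pathway are known for sharing sterol regulatory elements with nearby CCAAT and GC boxes. The sequences are those of RefSeq on build GRCr8, from windows of 250 bases before to 50 bases after each gene start. The table matched Cyp51, Fdps, Idi1 and Insig1 by symbol. Each stretch runs 5' to 3' on the gene's strand, and capitals mark CCAAT and GGGCGG or their reverse complements ATTGG and CCGCCC.
Cyp51: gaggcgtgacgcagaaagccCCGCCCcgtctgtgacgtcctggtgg
Fdps: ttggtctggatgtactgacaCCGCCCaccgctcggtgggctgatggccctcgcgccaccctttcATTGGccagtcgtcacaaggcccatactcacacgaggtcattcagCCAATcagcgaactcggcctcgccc
Idi1: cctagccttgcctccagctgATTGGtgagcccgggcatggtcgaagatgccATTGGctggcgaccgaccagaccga
Insig1: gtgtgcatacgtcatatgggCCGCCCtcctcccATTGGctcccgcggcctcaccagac
The Cyp51 stretch lies at chr4:30991546-30991591 on the plus strand. The others lie on the minus strand, Fdps at chr2:176804877-176805010, Idi1 at chr17:66547535-66547610 and Insig1 at chr4:8057938-8057995. A CCAAT box was present in 3 of the 4 windows (Fdps, Idi1 and Insig1), against 37.5% of 33469 promoters of the same length, with both strands searched. A GC box was present in 3 of the 4 (Cyp51, Fdps and Insig1), against 33.1% of promoters. The letters TCACNCCAC, a form of the sterol regulatory element, were in 0 of the 4 windows and in 1.12% of promoters. Elements with other letters were not searched, and at so low a share 4 windows cannot show a lack of the element. The search says only whether these letters stand in these windows.

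Some arrays and labels stood apart. In 6 samples, the adult aorta and the neonatal valve, the tissue and description entries name each other's group, while title and source name go together. The groups here follow the title. Proliferation markers (8 genes) had a median log2 signal of 10.5 to 10.8 on the arrays titled neonatal valve and 10.3 to 10.5 on those titled neonatal aorta, against 6.07 to 7.71 for adult valve and 6.71 to 8.78 for adult aorta. Adult aorta 1 and neonatal aorta 2 carried markers of squamous epithelium (6 of the 8 listed genes had a probe set). The median log2 signal of those markers was 13.8 and 12.9 on these arrays, and 5.48 to 9.08 on the other 10. Beta-actin signal near the 3' end over that near the 5' end, a measure of RNA integrity and labelling, was 10.6 to 14.0 in adult valve and 7.24 to 8.84 in neonatal valve, against 1.44 to 2.59 in adult aorta and 1.40 to 1.55 in neonatal aorta. The same ratio for dap, a control RNA added to the samples, was 14.4 to 20.5 on the valve arrays. It was 1.95 to 2.81 on the aorta arrays other than neonatal aorta 2 and 3, where dap was almost absent. Both ratios therefore move with the tissue in every comparison of valve with aorta below. The beta-actin ratio also moves with age in the valve. The part of RNA integrity, labelling or sample preparation in these comparisons was not tested.

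The 3 adult valve arrays had the lowest mean level of the 6 genes. Against adult aorta, 6 of the 9 probe sets fell and none rose, for Idi1, Fdps, Fdft1 (both probe sets), Cyp51 (1 of its pair) and Insig1, at an adjusted p under 0.05. Over all 18552 probe sets tested, 19.9% were called lower and 37.1% were called either way. Against neonatal valve, all 9 differences were below 0 and for 7 the adult arrays lay wholly under the neonatal ones, but 0 passed the test. Of all probe sets, 18.5% were lower there with no overlap and 9.21% were called either way. Between the adult and the neonatal aorta, and between the neonatal tissues, 0 passed, where 7.31% and 32.6% of all probe sets were called. Differences are in log2 of the signal with the standard error of limma's fit across all probe sets, and p-values carry the Benjamini-Hochberg adjustment over all 18552.

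**Figure D1:**
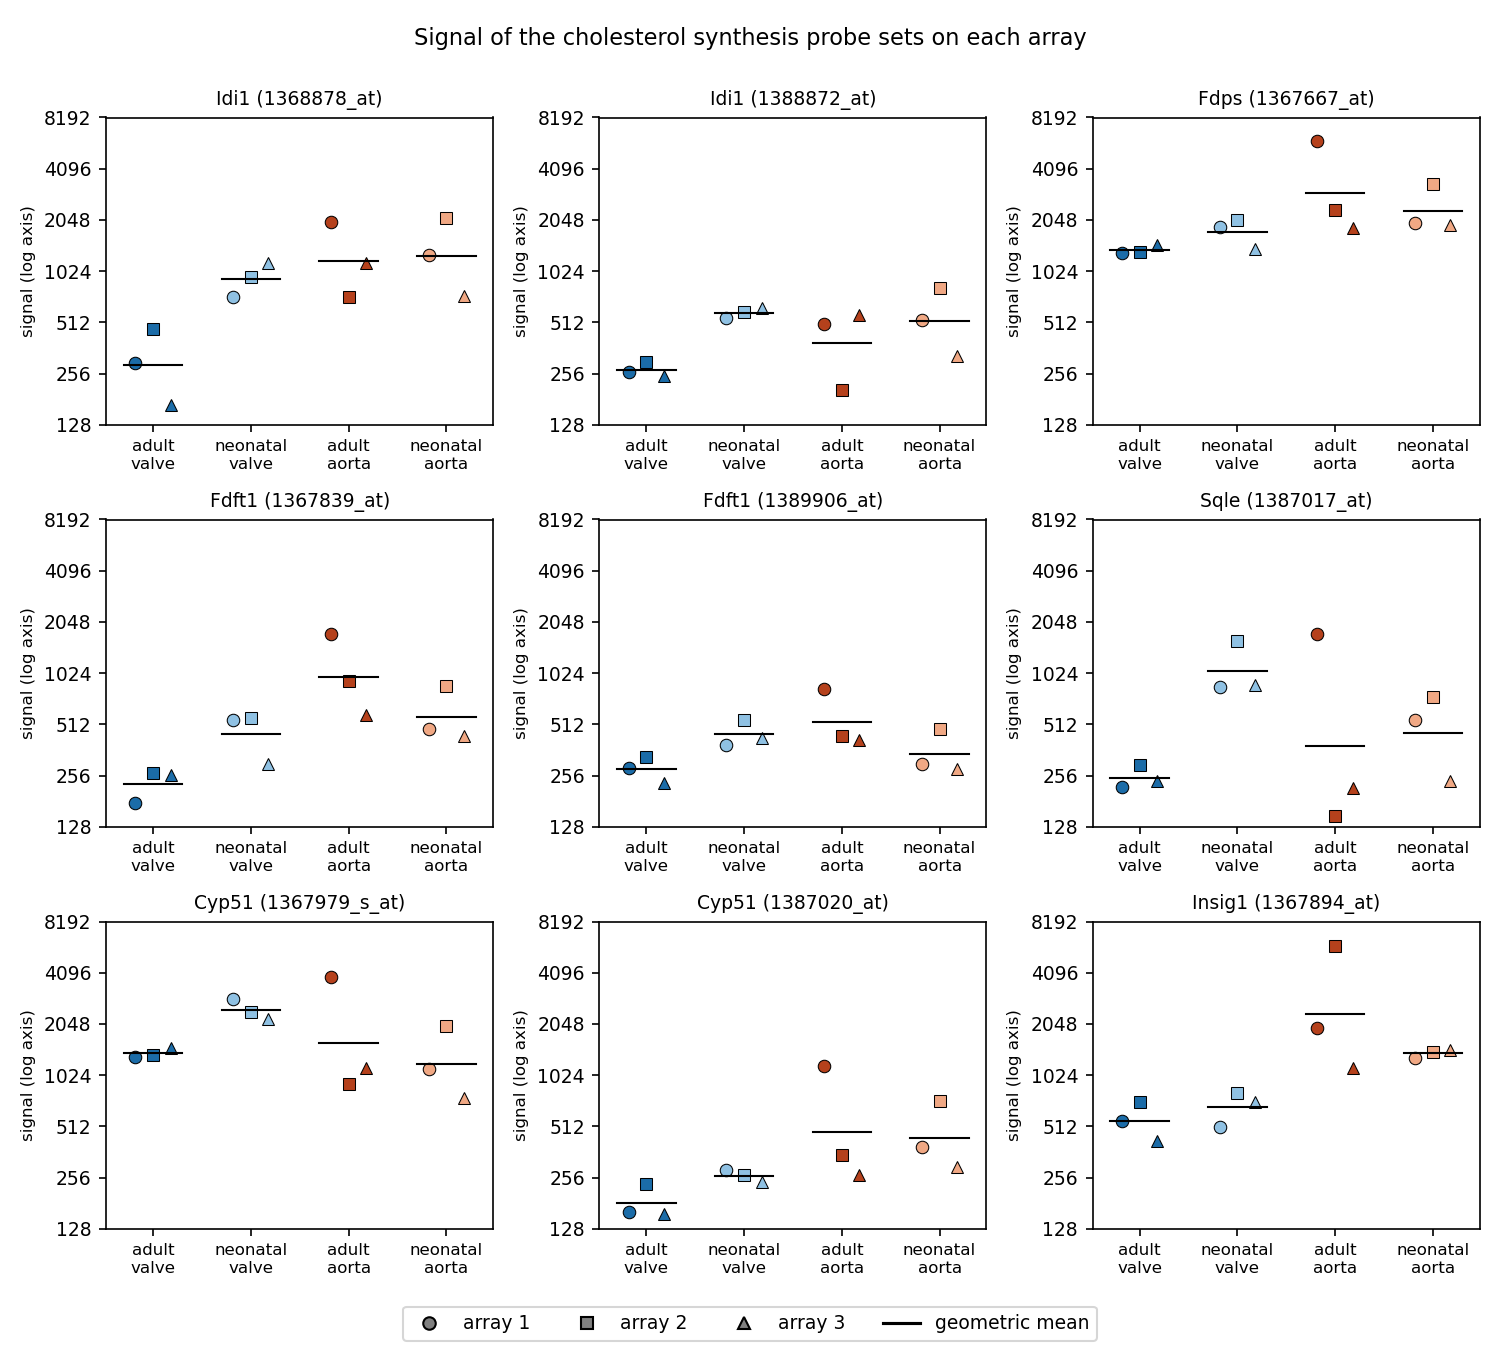
Signal of each of the 9 probe sets (log axis, arbitrary units of the array) on each of the 12 arrays, with groups from left to right adult valve, neonatal valve, adult aorta and neonatal aorta; marker shapes give the array number and the line is the geometric mean of 3 arrays. For Idi1 (1368878_at), Fdft1 (1367839_at) and Insig1 the adult valve arrays lie below all adult aorta arrays, and for Sqle and Cyp51 (1367979_s_at) they lie above adult aorta 2 and 3. Adult aorta 1 (circle) and neonatal aorta 2 (square) are the top of their groups for 7 and 8 of the 9 probe sets.

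Idi1 encodes the isomerase that turns isopentenyl diphosphate into the activated form from which longer isoprenoids are built. Its brighter probe set (1368878_at) had signals of 297, 471 and 167 in adult valve, 721, 946 and 1136 in neonatal valve, 1988, 719 and 1136 in adult aorta, and 1278, 2094 and 731 in neonatal aorta. All 3 adult valve arrays lay below all 9 others. Idi1 was 4.12-fold lower in adult valve than in adult aorta (log2 difference -2.04, SE 0.48, adjusted p = 0.0076). Against neonatal valve the log2 difference was -1.69 (SE 0.48), and the adjusted p of 0.052 missed the threshold. The dimmer Idi1 probe set (1388872_at) read 259.8, 299 and 247 in adult valve, 546, 589 and 618 in neonatal valve, 501, 205 and 567 in adult aorta, and 531, 820.2 and 326 in neonatal aorta. Adult valve was again below neonatal valve on every array (log2 difference -1.12, SE 0.40, adjusted p = 0.099). Against adult aorta it overlapped, since adult aorta 2 was the lowest of the 12 arrays, and the difference of -0.53 (SE 0.40) did not pass (adjusted p = 0.31).

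Fdps encodes farnesyl diphosphate synthase, whose product feeds sterols, protein prenylation and ubiquinone alike. Its probe set (1367667_at) had signals of 1316, 1318 and 1458 in adult valve, 1858, 2050.1 and 1391 in neonatal valve, 5930.5, 2328 and 1840.2 in adult aorta, and 1959, 3330.4 and 1913 in neonatal aorta. Adult valve lay below every aorta array, and neonatal valve 3 lay among the adult valve arrays. Fdps was 2.16-fold lower in adult valve than in adult aorta (log2 difference -1.11, SE 0.39, adjusted p = 0.042). Without adult aorta 1, by far the brightest array, this difference was -0.60 (SE 0.27) and no longer passed (adjusted p = 0.10). Against neonatal valve it was -0.36 (SE 0.39, adjusted p = 0.60).

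Fdft1 encodes squalene synthase, the first enzyme committed to sterols. Its probe set 1367839_at had signals of 176, 266 and 258 in adult valve, 547, 559.6 and 298 in neonatal valve, 1733, 921 and 581 in adult aorta, and 484, 860.3 and 436 in neonatal aorta. The adult valve was the lowest group with no overlap with any other. Fdft1 was 4.25-fold lower in adult valve than in adult aorta (log2 difference -2.09, SE 0.42, adjusted p = 0.0032), and -0.97 (SE 0.42, adjusted p = 0.17) was its log2 difference from neonatal valve. The other Fdft1 probe set (1389906_at) read 282, 330.3 and 231 in adult valve, 386, 547 and 424 in neonatal valve, 832, 437 and 412 in adult aorta, and 299, 482 and 280.2 in neonatal aorta. It was 1.91-fold lower in adult valve than in adult aorta (log2 difference -0.93, SE 0.32, adjusted p = 0.039), with no overlap, and the difference was -0.61 (SE 0.29, adjusted p = 0.12) without adult aorta 1. Both Fdft1 probe sets were above 0 in adult against neonatal aorta, at 0.78 (SE 0.42, adjusted p = 0.29) and 0.63 (SE 0.32, adjusted p = 0.26), and neither passed.

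Sqle encodes squalene epoxidase, an oxygen-dependent and rate-limiting step of the sterol branch. Its probe set (1387017_at) had signals of 219, 296 and 237 in adult valve, 845, 1575 and 877 in neonatal valve, 1741, 148 and 216 in adult aorta, and 545, 737 and 238 in neonatal aorta. Every neonatal valve array was above every adult valve and neonatal aorta array, and the adult aorta group was split, with array 1 the highest of all 12 and array 2 the lowest. The log2 difference between adult and neonatal valve was -2.08 (SE 0.76), or 4.23-fold lower, with an adjusted p of 0.11. The standard error is shared by the 4 groups and takes in the spread of the adult aorta. Without adult aorta 1 the same difference of -2.08 had a standard error of 0.40 and an adjusted p of 0.0072. Against adult aorta, adult valve differed by -0.62 (SE 0.76, adjusted p = 0.55), which became 0.48 (SE 0.45, adjusted p = 0.42) without adult aorta 1. The neonatal valve was above neonatal aorta by 1.20 (SE 0.76, adjusted p = 0.25) with all arrays, and by 1.20 (SE 0.40, adjusted p = 0.035) without adult aorta 1.

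Cyp51 encodes the demethylase that takes lanosterol on towards cholesterol. Its brighter probe set (1367979_s_at, whose suffix marks probes that can match more than 1 transcript) had signals of 1313, 1348 and 1476 in adult valve, 2888, 2405 and 2176 in neonatal valve, 3872, 913 and 1132 in adult aorta, and 1109.8, 2000.3 and 755 in neonatal aorta. Neonatal valve was above adult valve and above neonatal aorta on every array. The log2 difference was -0.84 (SE 0.49, adjusted p = 0.30) between adult and neonatal valve and 1.06 (SE 0.49, adjusted p = 0.12) between neonatal valve and neonatal aorta, so neither passed. Without adult aorta 1 and neonatal aorta 2, both passed, at -0.84 (SE 0.21, adjusted p = 0.029) and 1.43 (SE 0.23, adjusted p = 0.0027). Adult valve and adult aorta differed by -0.21 (SE 0.49, adjusted p = 0.76), and by 0.44 (SE 0.34, adjusted p = 0.32) without adult aorta 1.

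The dimmer Cyp51 probe set (1387020_at) ran differently between tissues. It read 161, 236 and 157 in adult valve, 282, 265 and 241 in neonatal valve, 1166, 346 and 265 in adult aorta, and 387, 726 and 295 in neonatal aorta. Both valve groups lay below their aorta with no overlap. Adult valve was 2.62-fold lower than adult aorta (log2 difference -1.39, SE 0.50, adjusted p = 0.048), which dropped out at -0.74 (SE 0.36, adjusted p = 0.13) without adult aorta 1. For neonatal valve against neonatal aorta the difference was -0.73 (SE 0.50, adjusted p = 0.29), opposite in sign to that of the brighter probe set. The Cyp51 pair correlated at r = 0.43 over the 12 arrays and at r = 0.93 after each group's mean was taken off, so the probe sets tracked each other within groups and parted between them. The same values were 0.81 and 0.76 for the Fdft1 pair and 0.77 and 0.77 for the Idi1 pair.

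Insig1 encodes the endoplasmic reticulum protein that retains SCAP with the SREBPs. Its probe set (1367894_at) had signals of 551, 714 and 420.2 in adult valve, 507, 806 and 713 in neonatal valve, 1941, 5891 and 1135 in adult aorta, and 1291, 1407 and 1440.0 in neonatal aorta. All 6 valve arrays lay below all 6 aorta arrays. Insig1 was 4.28-fold lower in adult valve than in adult aorta (log2 difference -2.10, SE 0.48, adjusted p = 0.0061). Without adult aorta 2, its brightest array, it was 2.71-fold lower (log2 difference -1.44, SE 0.31, adjusted p = 0.0083). In the newborns the difference was -1.05 (SE 0.48, adjusted p = 0.11), and it passed at an adjusted p of 0.017 without adult aorta 2. By age, Insig1 differed by -0.27 (SE 0.48, adjusted p = 0.76) in valve, the smallest of the 9 probe sets there, and by 0.77 (SE 0.48, adjusted p = 0.37) in aorta. Adult aorta 2 was also the array with the most adipocyte marker signal (median log2 13.2 over all 8 listed genes). Adipocyte marker medians were 6.12 to 7.96 in adult valve and 4.94 to 5.14 in neonatal valve, against 8.77 to 13.2 in adult aorta and 10.4 to 12.4 in neonatal aorta. Their part in the differences of Insig1 and of the other genes between valve and aorta was not tested.

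**Figure D2:**
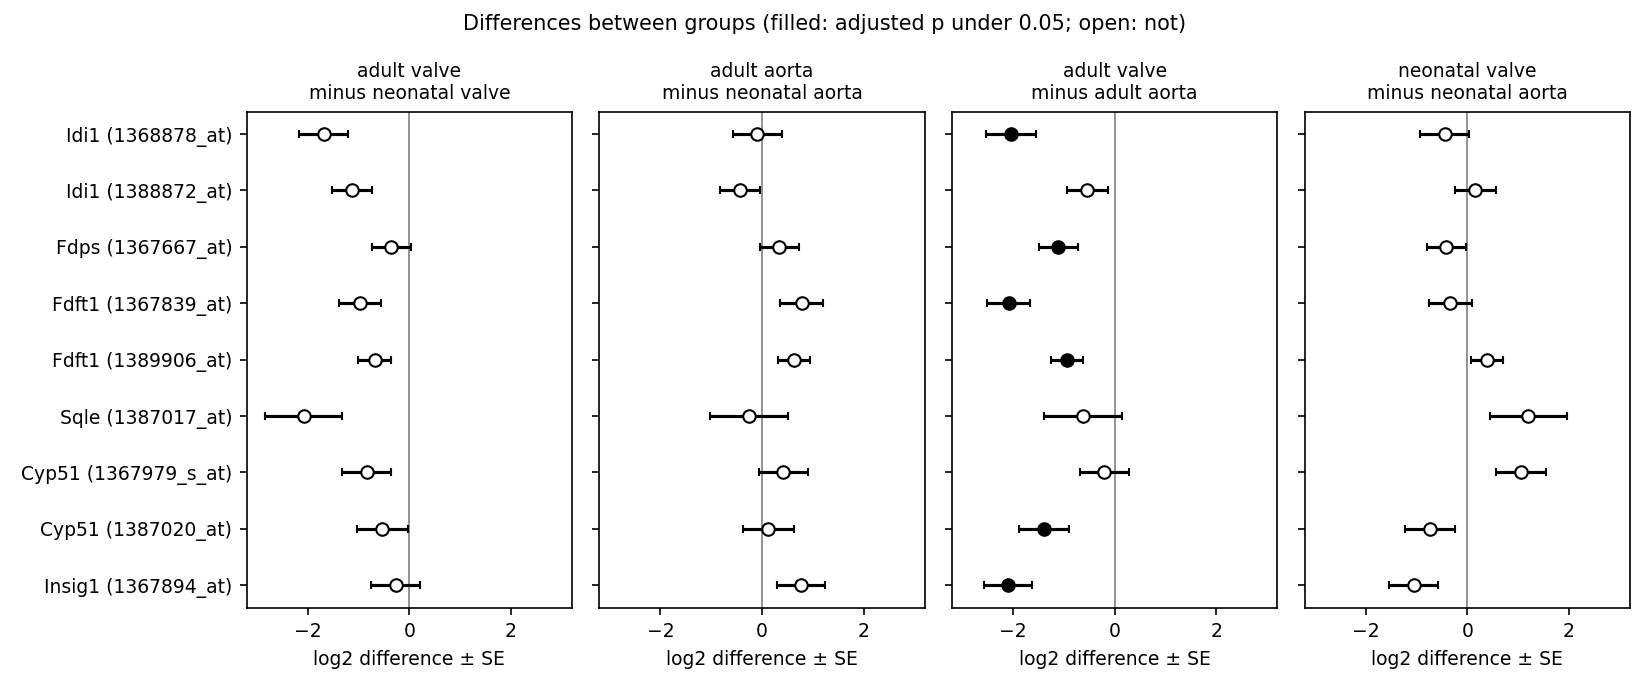
Log2 difference of each of the 9 probe sets in 4 comparisons, with the standard error of the fit; filled points had an adjusted p under 0.05. Filled points stand in the adult valve against adult aorta panel alone, where 6 of the 9 are filled, and all 9 points are left of 0 there and in the adult valve against neonatal valve panel.

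Between adult valve and adult aorta the 9 log2 differences ran from -2.10 to -0.21 with a median of -1.11, against a median of -0.05 over all probe sets tested. Endothelial markers (7 of 8 listed genes) had signals that summed to 11893 to 35856 in adult valve and 4283 to 8749 in adult aorta, with no overlap. Smooth muscle markers (8 of 8) had medians of 7.22 to 11.6 in adult valve and 11.4 to 12.9 in adult aorta, and the part of these cells was not tested. The 6 called were also those whose arrays did not overlap, and 23.2% of all probe sets were lower with no overlap. Of these calls, Idi1 (1368878_at), Fdft1 (1367839_at) and Insig1 passed in each of the 12 fits that left out 1 array. The count was 3 without adult aorta 1, without neonatal aorta 1, without adult valve 1 or without adult valve 3. Over all probe sets these fits called 7048, 6272, 5741 and 5899. The count for the 9 was also 3 without adult aorta 1 and neonatal aorta 2 together. It was 3 as well when each array was centred on its median signal, which moved the median of all probe sets to 0.34 and that of the 9 to -0.72, with Cyp51 (1367979_s_at) then above 0 at 0.18. With the groups taken from the tissue entry, which sets adult valve against the arrays titled neonatal valve, it was 0.

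Between adult and neonatal valve the log2 differences ran from -2.08 to -0.27 with a median of -0.84, against -0.04 over all probe sets tested. By limma's test 0 of 9 passed, 4 had an unadjusted p under 0.05, and 9.21% of all probe sets were called. The arrays did not overlap for 7 of 9, adult valve being lower each time, which held for 18.5% of all probe sets. The exceptions were Fdps and Insig1. The count called was 2 without adult aorta 1 (Idi1 and Sqle), 2 without adult aorta 2 (both Idi1 probe sets) and 1 without adult valve 2. Over all 18552 probe sets these fits called 3093, 1718 and 1514, against 1709 with all arrays. The count for the 9 was 3 without adult aorta 1 and neonatal aorta 2 (Idi1, Sqle and Cyp51), with the difference itself resting on the same 6 valve arrays. That fit called 2395 of all probe sets. This comparison and the one above share the adult valve arrays. Proliferation marker signals summed to 520 to 3170 in adult valve and 11992 to 18357 in neonatal valve, with no gene of that list above the median of all signals on every adult valve array. The beta-actin ratio, 10.6 to 14.0 in adult valve and 7.24 to 8.84 in neonatal valve, did not overlap either. Cardiac muscle markers had medians of 7.52 to 13.3 in adult valve and 12.8 to 13.5 in neonatal valve, and thymocyte markers were high on neonatal valve 3 (12.7, from 5 of 8 listed genes). The part of these in the difference was not tested.

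Between adult and neonatal aorta the differences ran from -0.43 to 0.78, 6 above 0 and 3 below, with a median of 0.34 against -0.08 over all probe sets. None of the 9 passed limma's test, 0 had an unadjusted p under 0.05, and 7.31% of all probe sets were called. The arrays overlapped for all 9, while 10.7% of all probe sets were higher and 20.2% lower with no overlap. Between neonatal valve and neonatal aorta they ran from -1.05 to 1.20, 4 above 0 and 5 below. Here 0 of 9 passed, 1 (Insig1) had an unadjusted p under 0.05, and 32.6% of all probe sets were called. Sqle and Cyp51 (1367979_s_at) were higher in neonatal valve with no overlap and Insig1 and Cyp51 (1387020_at) were lower with no overlap, which held for 26.2% and 33.5% of all probe sets. The count called was 2 without adult aorta 1 (Sqle and Cyp51, both higher in neonatal valve) and 1 without adult aorta 2 (Insig1). Over all 18552 probe sets these fits called 7386 and 6037, so neither count stands above the share of all probe sets.

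The interaction of age and tissue, the adult-minus-neonatal difference of the valve less that of the aorta, was below 0 for all 9 probe sets, from -1.82 to -0.66, with a median of -1.26 against 0.06 over all probe sets. By limma's test 0 of 9 passed and 0.0593% of all probe sets were called. An unadjusted p under 0.05 was found for 3, Fdft1 at -1.76 (SE 0.59, adjusted p = 0.29) and -1.32 (SE 0.45, adjusted p = 0.29), and Idi1 (1368878_at) at -1.60 (SE 0.69, adjusted p = 0.40). The age differences of valve and aorta were therefore not shown to differ for any of these genes.

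Much of the variation was within the aorta groups. Adult aorta 1 was the highest of its group for 7 of the 9 probe sets (not for the dimmer Idi1 probe set or Insig1), and neonatal aorta 2 for 8 of the 9 (not for Insig1). The mean standardised level of the 6 genes, in SDs from the mean of the 12 arrays, was -1.01, -0.67 and -1.01 in adult valve, 0.14, 0.41 and -0.04 in neonatal valve, 1.67, 0.19 and -0.15 in adult aorta, and 0.06, 0.80 and -0.38 in neonatal aorta. The adult valve arrays were the 3 lowest. The squamous epithelium markers summed to 362 to 816 in adult valve, 402 to 5156 in neonatal valve, 485 to 115783 in adult aorta and 411 to 60305 in neonatal aorta, with none of their genes above the median of all signals on every array of any group. The skeletal muscle markers also peaked on adult aorta 1 within the aorta (median log2 14.8), with 11.9 on neonatal aorta 2. The part of these cells in the levels was not tested.

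**Figure D3:**
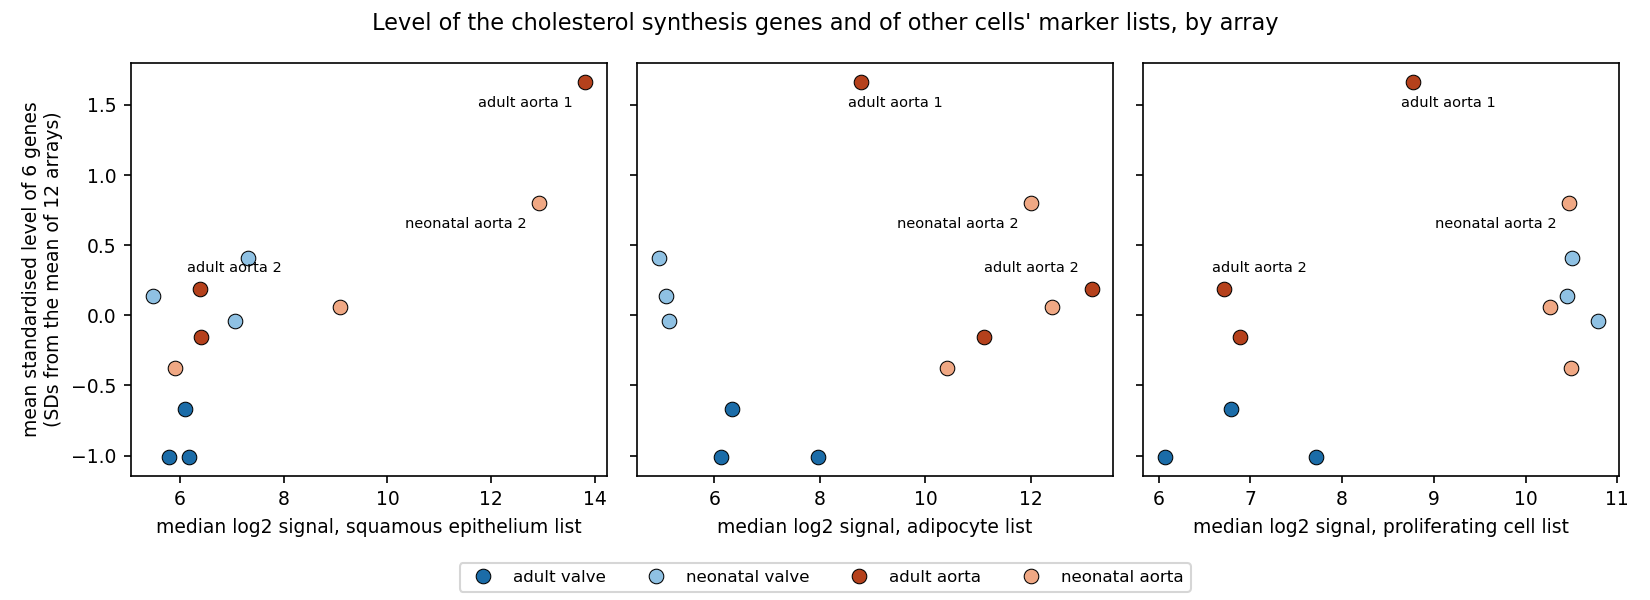
Mean standardised level of the 6 genes (SDs from the mean of the 12 arrays) against the median log2 signal of the squamous epithelium, adipocyte and proliferating cell lists; each point is 1 array, coloured by group. Adult aorta 1 (1.67) and neonatal aorta 2 (0.80) stand at the right of the squamous panel, and the 3 adult valve arrays (-1.01 to -0.67) are at the bottom of all 3 panels.

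The genes did not all vary together. Over the 12 arrays the 15 pairs of the 6 genes had Pearson's r of -0.28 to 0.93 (median 0.51), and -0.30 to 0.92 (median 0.66) after the group means were taken off. Fdft1 and Fdps were the closest pair at r = 0.93, and Sqle and Cyp51 followed at 0.87. Insig1 ran against Cyp51 (r = -0.28) and Sqle (r = -0.15). These values describe 12 arrays that share groups and the outlying aorta arrays.

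The genes elsewhere on the array whose log2 signal was most like the mean standardised level of the 6, by Pearson's r over the 12 arrays, were Tpm2 (0.955), Esrp1 (0.933), Sim2 (0.933), Ppa1 (0.928), Cds1 (0.923), Aimp2 (0.923), Zdhhc13 (0.920) and Adsl (0.918). Esrp1 is a splicing regulator of epithelial cells. Adult aorta 1, the highest array of that mean level (1.67), had the highest medians of both the squamous epithelium (13.8) and the skeletal muscle (14.8) markers. The part of either in this likeness was not tested. The closest of the other sterol genes were Lss (0.865), Acat2 (0.856) and Mvk (0.847), at ranks 71, 86 and 97.

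The rest of the pathway was read from 4 lists with 51 genes, 1 probe set (the brightest) standing for each gene. Of 17 other synthesis enzymes, 13 were tested. In adult valve against adult aorta 6 of the 13 fell and 0 rose, with a median log2 difference of -0.89, where 19.9% of all probe sets were called lower and 37.1% either way. Lbr, an inner nuclear membrane protein that is also a sterol reductase, fell by 2.13 on the log2 scale (SE 0.37, adjusted p = 0.0015). Dhcr7, a late sterol reductase, fell by 1.89 (SE 0.54, adjusted p = 0.018). Its signals were 122, 179 and 224 in adult valve and 1210.2, 942 and 218 in adult aorta, so the groups overlapped at adult aorta 3. The call was lost without adult aorta 1 (log2 difference -1.42, adjusted p = 0.054) or without adult aorta 2 (-1.60, adjusted p = 0.067), and the difference was -2.66 (adjusted p = 0.00049) without adult aorta 3. Acat2, the thiolase at the entry of the pathway, fell by 1.37 (SE 0.37, adjusted p = 0.013). Mevalonate kinase (Mvk) fell by 1.25, lanosterol synthase (Lss) by 1.15 and the scaffold protein Erg28 by 0.80. Without adult aorta 1, 5 of the 13 fell, and without adult aorta 1 and neonatal aorta 2, 3 fell. With arrays centred on their medians 3 fell and 2 rose. Over all probe sets tested, 3907, 3497 and 2264 were called lower in these fits in turn, and 5308 higher with centring.

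By age, 1 of the 13 enzymes passed the test in valve and 1 in aorta, where 9.21% and 7.31% of all probe sets were called. In valve 9 of the 13 differences were below 0 (median -0.41) and 3 had an unadjusted p under 0.05, Acat2 and Dhcr7 below 0 and Pmvk above. Acat2 had signals of 318, 299 and 278 in adult valve, against 714, 1024 and 654 in neonatal valve. It was 2.63-fold lower in the adult (log2 difference -1.39, SE 0.37, adjusted p = 0.039), with no overlap. Phosphomevalonate kinase (Pmvk) had 1269, 1465 and 1849 in adult aorta, against 658, 594 and 771 in neonatal aorta, and was 2.25-fold higher (log2 difference 1.17, SE 0.31, adjusted p = 0.044). In neonatal valve against neonatal aorta the desaturase gene Sc5d rose by 0.95 (SE 0.26, adjusted p = 0.018), and Lbr (-2.23) and Erg28 (-0.76) fell. The Sc5d probe sets disagreed, since a dimmer one (1387926_at) differed by -2.72 (SE 0.34, adjusted p = 0.000269) between adult valve and adult aorta, where the brightest one was not called. In the newborns 1387926_at had a mean log2 signal of 7.55 in valve and 8.44 in aorta, opposite in direction to the brightest one. Its arrays overlapped there. Another probe set (1390777_at) had 9.02 and 8.45, in the direction of the brightest one.

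**Figure D4:**
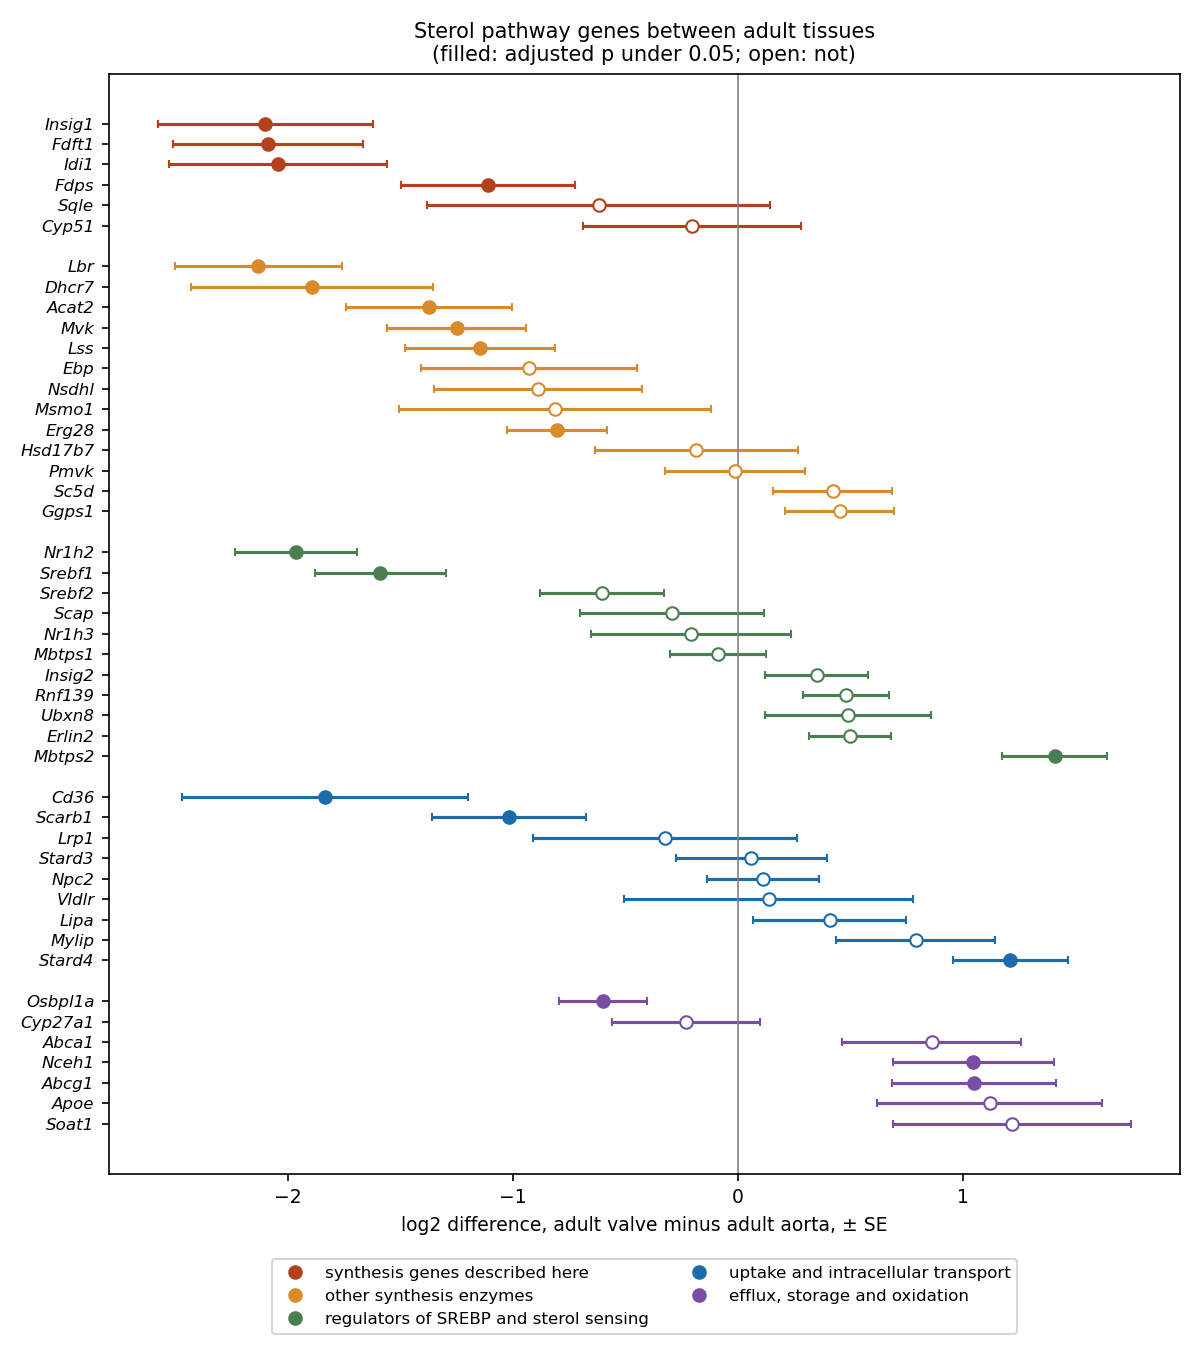
Log2 difference between adult valve and adult aorta (with the standard error of the fit) for the brightest probe set of each gene of the synthesis group and of the 4 other lists; filled points had an adjusted p under 0.05. The filled synthesis genes all lie left of 0 (4 of the 6 described here and 6 of the 13 other enzymes), and the filled genes of the other lists lie on both sides.

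Among 11 tested regulators, 2 fell and 1 rose in adult valve against adult aorta, with a median difference of -0.09, where 37.1% of all probe sets were called, so the count of 3 does not stand above that share. Nr1h2, the sterol-sensing receptor LXR beta, had signals of 298, 415 and 200.1 in adult valve, against 1261, 1139.7 and 1018 in adult aorta. It was 3.90-fold lower (log2 difference -1.96, SE 0.27, adjusted p = 0.00040). Srebf1 had 495, 543 and 500.2 in adult valve, against 1186, 2334 and 1319 in adult aorta, and was 3.01-fold lower (log2 difference -1.59, SE 0.29, adjusted p = 0.0019). The arrays of the tissues did not overlap for either gene. Mbtps2, one of the proteases that free the SREBPs, was 2.65-fold higher (log2 difference 1.41, SE 0.24, adjusted p = 0.0012). Srebf2, the main driver of the synthesis genes, differed by -0.60 (SE 0.28, adjusted p = 0.11), Insig2 by 0.35 (SE 0.23, adjusted p = 0.25) and Scap by -0.29 (SE 0.41, adjusted p = 0.60). The Scap probe sets disagreed in size. A dimmer one (1384464_at) had a mean log2 signal of 5.55 in adult valve and 7.88 in adult aorta. In the newborns it had 5.08 in valve and 7.40 in aorta. Its valve and aorta arrays did not overlap at either age.

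In the newborns 5 of the 11 regulators fell and 3 rose in valve against aorta, with a median difference of -0.70 against -0.09 over all probe sets, of which 32.6% were called. Those that fell were Nr1h2 (-2.21), Srebf1 (-1.35), Nr1h3 (-1.30), Srebf2 (-0.90) and Mbtps1 (-0.70), and those that rose were Mbtps2 (1.05), Insig2 (0.98) and Rnf139 (0.80), with adjusted p-values of 0.000255 to 0.043. With arrays centred on their medians 2 fell and 4 rose, and without adult aorta 1 and neonatal aorta 2, 2 fell and 3 rose. Over all probe sets 2381 were called lower and 4072 higher with centring, and 3229 and 2195 without those arrays. Insig2, the close relative of Insig1, differed by 0.98 (SE 0.23, adjusted p = 0.0076) where Insig1 differed by -1.05. The dimmer Insig2 probe set (1393690_at) differed by -0.30 (SE 0.32, adjusted p = 0.50) there and by -0.85 (SE 0.32, adjusted p = 0.055) between the adult tissues. By age, 0 of the 11 regulators passed limma's test in valve or in aorta. Srebf2 differed by 0.12 (SE 0.28, adjusted p = 0.82) in valve and Srebf1 by 0.41 (SE 0.29, adjusted p = 0.40).

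Of 13 listed uptake and transport genes, 9 were tested, with median differences between valve and aorta of 0.11 in adults, where 2 fell and 1 rose, and -0.31 in newborns, where 1 fell and 1 rose. These counts do not stand above the shares of all probe sets called, 37.1% in adults and 32.6% in newborns. The sterol carrier Stard4 was higher in valve than in aorta at both ages, by 1.21 (SE 0.26, adjusted p = 0.0043) in adults and 1.49 (SE 0.26, adjusted p = 0.0016) in newborns. Its dimmer probe set (1396521_at) did not pass, at -0.20 (SE 0.33, adjusted p = 0.65) in adults and 0.03 (SE 0.33, adjusted p = 0.96) in newborns. The scavenger receptor gene Cd36, also an adipocyte and muscle gene, was lower in valve at both ages, with log2 differences of -1.83 (SE 0.63, adjusted p = 0.041) in adults and -2.32 (SE 0.63, adjusted p = 0.017) in newborns. Its adult aorta signals of 1232, 11245 and 3398 peaked on array 2, the one with the most adipocyte marker signal, and the adult call was lost without that array (-1.02, SE 0.47, adjusted p = 0.13) or without adult aorta 3 (-1.88, SE 0.74, adjusted p = 0.069). The HDL receptor gene Scarb1 differed by -1.02 (SE 0.34, adjusted p = 0.037) between the adult tissues. By age, 1 of the 9 passed in valve, a count near the 9.21% of all probe sets called there. This gene was Mylip, which encodes a ubiquitin ligase that restrains lipoprotein uptake. It had signals of 1985, 1936 and 2820.2 in adult valve, against 758, 799 and 916 in neonatal valve, and was 2.69-fold higher (log2 difference 1.43, SE 0.35, adjusted p = 0.031).

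Of 9 efflux, storage and oxidation genes, 7 were tested. In adult against neonatal valve 2 rose and 0 fell, with a median difference of 0.46, where 9.21% of all probe sets were called. Apoe, the apolipoprotein that accepts cellular cholesterol, had signals of 4607, 9823 and 8723 in adult valve, against 1257, 1759 and 2686 in neonatal valve. It was 4.05-fold higher (log2 difference 2.02, SE 0.50, adjusted p = 0.031), with no overlap. Macrophage markers (8 of 8 listed genes), whose cells also make Apoe, had medians of 9.20 to 10.1 in adult valve and 7.69 to 8.81 in neonatal valve, and their part in this difference was not tested. Cyp27a1, a mitochondrial sterol hydroxylase, was 2.65-fold higher in adult than in neonatal valve (log2 difference 1.40, SE 0.33, adjusted p = 0.025). It was also 2.70-fold higher in adult than in neonatal aorta (log2 difference 1.43, SE 0.33, adjusted p = 0.025), the 1 gene of the list that passed there. Between adult valve and adult aorta, the exporter gene Abcg1 (1.05) and the cholesteryl ester hydrolase gene Nceh1 (1.04) rose, and the oxysterol-binding protein gene Osbpl1a (-0.60) fell, with a median of 1.04 and 37.1% of all probe sets called. For Abcg1 a dimmer probe set (1387054_at) went the other way, at -1.28 (SE 0.45, adjusted p = 0.046). Nceh1 was higher in neonatal valve than in neonatal aorta too, by 2.01 (SE 0.36, adjusted p = 0.0019). Over the 4 lists and the comparisons of 2 groups, 15 of the 35 calls passed in each of the 12 fits that left out 1 array. They were those of Nr1h2, Srebf1, Mbtps2, Stard4 and Lbr between the tissues at both ages, of Mvk and Erg28 in adults, and of Insig2, Rnf139 and Nceh1 in newborns. The 4 calls by age in valve and the 2 in aorta each lost significance in at least 1 of those fits.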

How the data were processed

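The deposited values are intensity values, 1 signal per probe set and array linear, which the authors computed by MAS5 in Affymetrix Expression Console, per the submitters' processing notes. Program versions and the target of the scaling are not given in the sources used. Trimmed means (2% off each end) were 500.1 to 500.2. Gene symbols came from the array's annotation table: 20826 probe sets had 1 symbol (20758 matched by gene ID), 436 several and 9780 none. The 57 control probe sets were left out, signals under 1 were set at 1, log2 was taken, and probe sets above 172 (the median of all values) on at least 3 of the 12 arrays were tested.

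All 12 arrays entered 1 fit of the 4 group means (limma 3.58.1, R 4.3.3, lmFit and eBayes with an intensity trend, two-sided, Benjamini-Hochberg over 18552 probe sets, threshold 0.05). The code was run on simulated arrays in which each probe set had the same spread in all 4 groups. That run does not check the fit for groups of unequal spread. Precision rests on 3 arrays per group. Samples were grouped by title. The tissue entry, other scalings, filters and spread models, blocks and left-out arrays were the alternatives.

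The genes, the 4 pathway lists and the marker lists were chosen with earlier results of these data known. Named were all probe sets of the synthesis genes, up to 6 called genes per list and comparison by smallest adjusted p, Srebf1, Srebf2, Scap and Insig2 always, and the 8 genes most like the group. Nr1h3 and the other probe sets named for disagreeing (Sc5d, Abcg1, Stard4, Insig2, Scap, Abca1, Soat1) were chosen after their values were seen. Same-numbered arrays were not paired.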

Additional observations from a re-analysis of the deposited data

How the results depend on the processing

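Counts of the 9 synthesis probe sets called were recomputed under 23 alternatives. Between adult valve and adult aorta the count was 6, and it became 3 with arrays centred on their median, 3 with only the groups compared in the fit, 3 with a block for the added control RNAs (almost absent on neonatal aorta 2 and 3), 0 with groups by the tissue entry, 3 without adult aorta 1 and neonatal aorta 2 (an alternative chosen after seeing the data), and 3 to 6 when 1 array was left out. Over all 18552 probe sets the calls went from 6891 to 7572, 3646, 6278, 1709, 6319 and 5692 to 7048, in that order. Between adult and neonatal valve the count of 0 became 3 with only the groups compared, 6 by the tissue entry, 3 without adult aorta 1 and neonatal aorta 2, and 0 to 2 without 1 array. Over all probe sets the calls went from 1709 to 1351, 6891, 2395 and 662 to 3093, in that order. Between neonatal valve and neonatal aorta the count of 0 became 3 with only the groups compared, 2 without adult aorta 1 and neonatal aorta 2, and 0 to 2 without 1 array. Over all probe sets the calls went from 6043 to 9008, 5424 and 4101 to 7386, in that order. The other 2 counts of the synthesis probe sets stayed at 0 when 1 array was left out. For the difference of age differences the fit of only the groups compared needs all 4 groups and was not run. Fitting only the groups compared kept the differences and changed their standard errors. For Sqle between adult and neonatal valve the standard error went from 0.76 to 0.31. For Fdps between adult valve and adult aorta it went from 0.39 to 0.44. Some fits also had fewer arrays, and the cause of the changed counts was not tested further.

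With the replicate number as a block, the count between adult valve and adult aorta was 6, where 6626 of all probe sets were called. Same-numbered arrays of different groups had deviations from their group means that correlated at -0.314 to 0.237 (18 pairs, median 0.007). Arrays of different groups with different numbers had -0.292 to 0.393 (36 pairs, median -0.01), so the ranges overlapped. Deviations from means of so few arrays cannot decide whether same-numbered samples came from the same animal or batch, and this was not tested.

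Of the 95 single values, 40 were called, and 13 reversed, each with groups by the tissue entry, which exchanges adult aorta and neonatal valve. In adult against neonatal aorta these were Cyp27a1 (-0.20) and Srebf1 (-1.35), and in adult against neonatal valve Cyp27a1 (-0.23) and Srebf1 (-1.59). In neonatal valve against neonatal aorta they were Nr1h2 (0.48), Srebf1 (0.65), Mbtps2 (-0.19) and Rnf139 (-0.19). In adult valve against adult aorta they were Osbpl1a (0.0139), Nceh1 (-0.69), Nr1h2 (0.73), Srebf1 (0.41) and Stard4 (-0.19). Values that passed in neither setting changed sign 14 times there and 37 times under the other alternatives.

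Centring each array on its median shifted the median of all probe sets between adult valve and adult aorta to 0.34 from -0.05, and the calls to 5308 higher and 2264 lower from 3207 and 3684 (3535 and 2978 with quantile normalization). Between the neonatal tissues the calls became 4072 and 2381 from 2461 and 3582, and between adult and neonatal valve 873 and 670 from 742 and 967. Detection calls were not used here. All 9 synthesis probe sets passed the filter on dim signals, and 3 arrays per group limit the precision.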
